A study of Mus musculus with 6 samples.

Results

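The epidermal differentiation complex (EDC) and the S100 genes around it were examined in mammary epithelial cells (MECs). Members were all genes of the deposited count table that were annotated as protein coding and whose symbol began with Sprr, or with Lce or S100a and a digit, or was Lor, Flg, Flg2, Ivl, Rptn, Hrnr, Tchh or Crnn. The rule took 59 of 55487 genes and used no measured value. Of these 59 genes, 22 had no count in any mouse, 37 had at least 1 count and 19 had a summed count of at least 30 over the 6 mice. The 19 genes were S100a11, S100a6, S100a10, S100a16, S100a1, S100a14, Sprr1a, S100a13, Tchh, Lor, Sprr2a3, Ivl, Flg2, S100a7a, S100a3, S100a8, S100a4, Hrnr and Sprr2a1, in the order of their counts. The genotype comparison tested 15 of them, and S100a3, S100a4, Hrnr and Sprr2a1 had too few counts for its filter.

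The study sequenced MEC RNA of 3 wild-type mice and 3 IL-21isoTg mice, which carry a transgene for an isoform of the cytokine IL-21 that is expressed in T cells. Each library came from 1 mouse. Mice of both genotypes were virgin females of the BALB/c strain aged 10 weeks, with the estrous stage randomized, and the promoter of the transgene was not named in the sources used here. The epithelial fraction was what remained of digested mammary tissue after magnetic depletion of cells positive for CD45 (leukocytes), CD31 (endothelium) or CD140a (fibroblasts), with no positive selection for an epithelial marker.

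The EDC is a block of genes that keratinocytes switch on as they move towards the skin surface. Loricrin, involucrin, the small proline-rich (SPRR) and the late cornified envelope (LCE) proteins are cross-linked by transglutaminases into the cornified envelope, a protein shell beneath the membrane of the dying cell. Fused S100 proteins such as filaggrin and trichohyalin join an S100 domain to long repeats and bind keratin filaments, whereas the short S100A proteins are calcium-binding partners of annexins and other proteins in many epithelia, and a few of them serve leukocytes. The mammary gland is itself a skin appendage, but its ducts end in a squamous, cornifying epithelium only at the nipple.

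Libraries held between 15902886 and 25719244 counts, and a floor of 3 counts corresponded to 0.112 to 0.280 CPM (counts per 1000000 counts of a library, after its size was adjusted by the trimmed mean of M values, TMM). Il21, which checks the labels, had 0, 0 and 37 counts in wild-type mice 1, 2 and 3 and 795, 216 and 131 counts in IL-21isoTg mice 1, 2 and 3. The check is thus not clean for wild-type mouse 3 (1.66 CPM). The source of its counts was not tested, and the labels were kept. The cells carried the markers of their label. The luminal keratin Krt8 lay between 1629.7 and 3009 CPM and Epcam between 674 and 1144 CPM in the 6 mice, and all 10 luminal and all 9 basal markers were measured. Genes of the salivary glands, a list of 15, took between 4.86% and 40.2% of the counts of a library, most in IL-21isoTg mouse 3. Of 8 fibroblast markers, 4 had all 3 IL-21isoTg mice above all 3 wild-type mice, as did 5.54% of all genes tested, and the summed level of the 8 was 1999 to 3539 CPM in wild-type and 4414 to 5088 CPM in IL-21isoTg mice. In such bulk samples fewer cells of a type and less RNA per cell cannot be told apart.

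All 59 genes lay on chromosome 3, over 3.05 Mb between positions 90511034 and 93564643 of the mouse genome build GRCm38 (mm10). The S100a genes at the 2 ends of this stretch carried nearly all of the signal. The genes S100a11, S100a6, S100a10, S100a16, S100a1, S100a14 and S100a13, 7 in all, held 94.1% of the 85386 counts of the 59 genes. Levels of different genes were compared per kilobase of all annotated exons of a gene together (511 bases for S100a11, 1367 for S100a6). The order depends on these lengths, which can exceed that of a single transcript. In CPM, without length, S100a11 (159 to 249) and S100a6 (105 to 252) overlapped. Per kilobase, S100a11 led with a mean of 377 CPM per kb, and its range over the mice, 312 to 487, lay above that of every other member. It was followed by S100a6 (124 CPM per kb, range 77.1 to 185), S100a1 (89.1, range 60.4 to 123), S100a10 (77.3, range 53.9 to 126) and S100a16 (43.2, range 30.8 to 63.9), and each of these overlapped the next in its range. Sprr1a, at 26.7 CPM per kb with a range of 8.23 to 49.6, was the only gene among the leading 8 from outside the S100a family, and it overlapped S100a16 above it and S100a13 (17.9, range 10.3 to 22.2) below it. The range of S100a14 (12.1, range 6.93 to 15.2) lay above that of the next gene, Lor (2.09, range 0.126 to 6.40). Tchh followed at 1.34 CPM per kb, and from Lor down each gene overlapped the next. The remaining 9 of the 19 genes had means between 0.0329 (Hrnr) and 0.937 (S100a8) CPM per kb.

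**Figure D1:**
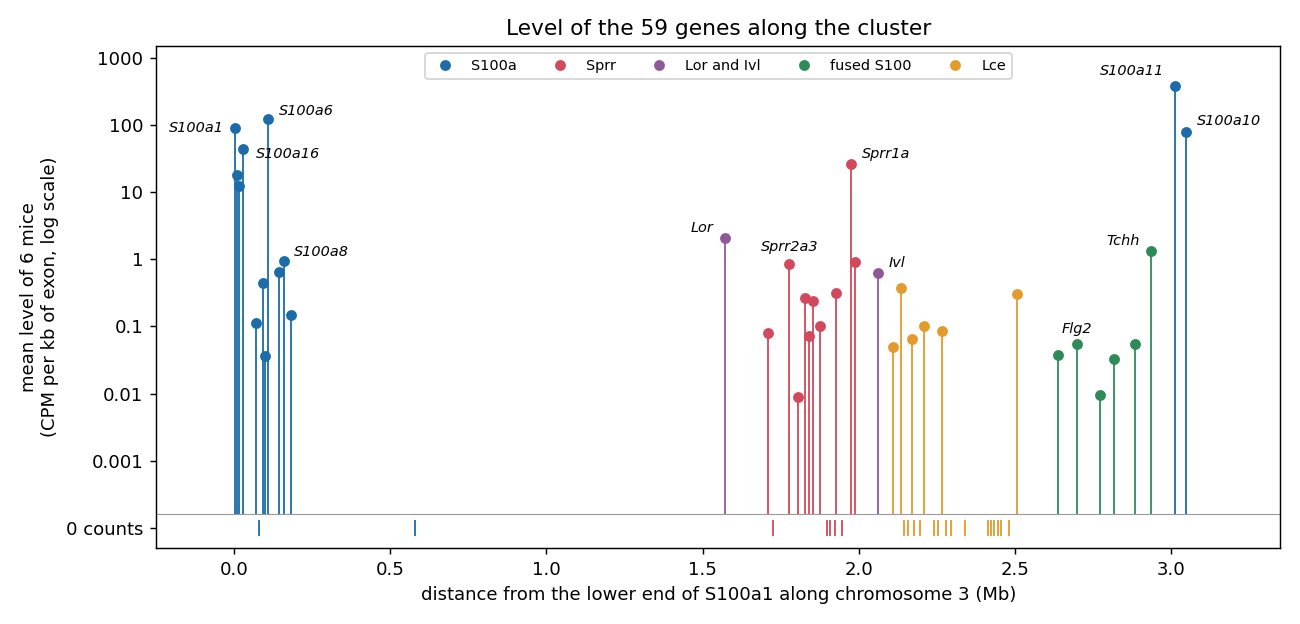
Mean level of each of the 59 genes over the 6 mice (vertical axis, CPM per kb of exon, log scale) against its distance from the lower end of S100a1 on chromosome 3 (horizontal axis, Mb), coloured by subfamily. Ticks at the bottom are the 22 genes without a count. S100a genes stand highest at the 2 ends of the stretch, with Sprr1a (26.7 CPM per kb) the highest between them.

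Counts of some members depend on how reads of shared sequence were assigned. Of all 75-base windows of the transcripts, 94.3% of those of Sprr2a1 and 47.5% of those of Sprr2a3 also occurred in another gene, so that the split of 32, 0 and 321 counts among Sprr2a1, Sprr2a2 and Sprr2a3 is uncertain. S100a11 shared 37.8% of its windows, most of them with the pseudogene Gm12854, and 302 of the 584 exon bases of S100a4 lay in the readthrough gene Gm42674, which had 0 counts. Among the LCE genes the shared part reached 45.6% (Lce3f).

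The letters of the promoter windows differed among these neighbouring genes. RefSeq promoter windows, 250 bases before to 50 bases after the transcription start on GRCm38.p6, were found for 54 of the 59 genes. The letters TGANTCA, to which AP-1 factors (Fos and Jun dimers) can bind, occurred on either strand in 18 of 54 genes (33.3%), against 7.81% of all 32851 windows, and the letters TATAAA in 25 of 54 genes (46.3%), against 13.6%. The GC box GGGCGG was found in 5 of 54 genes (9.26%), against 35.7% of all windows, and the letters GGGTGNGG in 8 of 54 (14.8%), against 16.6%. A gene was counted if any of its windows matched. Of the 58 member windows, 31.0% held TGANTCA, 43.1% TATAAA, 8.62% GGGCGG and 15.5% GGGTGNGG. By subfamily, TGANTCA was in 9 of 14 SPRR genes, in 4 of 6 fused S100 genes, in Lor and Ivl, in 3 of 12 S100a genes and in 0 of 20 LCE genes. Several SPRR genes are copies of each other, so they are not separate observations. Selected windows are given here, each 5′ to 3′ on the strand of its gene, with TGANTCA and TATAAA matches in capitals: Lor (chr3:92083093-92083392, minus strand) and Ivl (chr3:92573686-92573985, minus) as the classical envelope genes, Sprr1a (chr3:92485832-92486131, minus) as the envelope gene with the highest level, Flg2 (chr3:93197023-93197322, plus) for its pattern among mice, and S100a11 (chr3:93520246-93520545, plus) and S100a6 (chr3:90612644-90612943, plus) as the leading S100a genes. The Sprr1a and S100a11 windows hold 2 TGANTCA matches each and the S100a6 window holds none. A match is a description of the letters and was not tested for binding. Placement of the annotated starts was not checked, so a missing match can also reflect where a window lies. The TATAAA of S100a9, for example, began at the start itself, and that of Sprr2b 29 bases before it.
Lor: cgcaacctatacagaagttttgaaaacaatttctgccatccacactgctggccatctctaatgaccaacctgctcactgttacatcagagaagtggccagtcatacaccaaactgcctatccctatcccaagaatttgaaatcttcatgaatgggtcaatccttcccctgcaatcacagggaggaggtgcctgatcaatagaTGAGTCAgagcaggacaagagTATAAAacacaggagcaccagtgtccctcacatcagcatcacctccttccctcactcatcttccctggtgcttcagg
Ivl: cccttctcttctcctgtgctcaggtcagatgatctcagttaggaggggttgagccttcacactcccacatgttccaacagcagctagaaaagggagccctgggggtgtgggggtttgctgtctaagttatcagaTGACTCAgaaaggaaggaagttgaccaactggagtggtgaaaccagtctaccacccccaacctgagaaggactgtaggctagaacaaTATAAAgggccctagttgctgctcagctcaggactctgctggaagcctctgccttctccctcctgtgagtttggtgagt
Sprr1a: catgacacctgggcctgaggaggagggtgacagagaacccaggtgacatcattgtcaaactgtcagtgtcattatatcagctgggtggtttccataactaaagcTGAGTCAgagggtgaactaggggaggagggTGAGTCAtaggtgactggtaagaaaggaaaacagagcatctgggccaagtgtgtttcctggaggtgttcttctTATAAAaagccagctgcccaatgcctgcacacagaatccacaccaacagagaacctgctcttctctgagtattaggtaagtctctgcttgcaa
Flg2: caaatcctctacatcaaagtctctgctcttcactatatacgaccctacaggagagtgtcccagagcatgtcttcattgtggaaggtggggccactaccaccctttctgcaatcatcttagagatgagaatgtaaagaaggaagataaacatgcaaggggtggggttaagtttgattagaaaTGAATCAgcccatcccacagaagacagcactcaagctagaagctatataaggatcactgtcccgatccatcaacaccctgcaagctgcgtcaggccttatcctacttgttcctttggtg
S100a11: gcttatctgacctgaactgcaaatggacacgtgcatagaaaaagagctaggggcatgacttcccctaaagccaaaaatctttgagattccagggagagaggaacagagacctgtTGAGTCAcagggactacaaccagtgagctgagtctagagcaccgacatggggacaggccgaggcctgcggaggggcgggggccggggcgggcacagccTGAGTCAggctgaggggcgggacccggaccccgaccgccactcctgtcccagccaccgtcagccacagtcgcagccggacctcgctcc
S100a6: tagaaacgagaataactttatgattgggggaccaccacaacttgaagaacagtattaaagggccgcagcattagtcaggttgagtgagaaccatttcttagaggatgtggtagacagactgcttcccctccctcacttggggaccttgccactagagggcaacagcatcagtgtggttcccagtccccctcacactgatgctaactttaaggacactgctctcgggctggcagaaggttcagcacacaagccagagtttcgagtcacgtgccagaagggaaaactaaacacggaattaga

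Between the genotypes none of the tested members differed beyond the spread among mice. By edgeR's quasi-likelihood test 0 of 15 members passed an adjusted p of 0.05, where 0.0% of the 17165 genes tested did, and by DESeq2 again 0 of 15, where 0.466% of genes did. At an unadjusted p under 0.05 the edgeR test had 0 of 15 members (5.82% of all genes, 3.19% higher and 2.63% lower in IL-21isoTg mice), and 0 of 15 had all mice of one genotype above all of the other (12.1% of all genes, 5.54% higher and 6.54% lower). The median log2 fold change of the 15 members, IL-21isoTg over wild-type, was -0.025, with 7 above and 8 below 0, against -0.019 over all genes. Adjusted p-values of the members ran from 0.810 to 0.998 by edgeR. Over the 6 mice of both genotypes together, the level of S100a11 differed 1.56-fold between its lowest and highest mouse, that of Sprr1a 6.03-fold and that of Lor 50.6-fold. These ranges do not separate genotype from mouse.

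**Figure D2:**
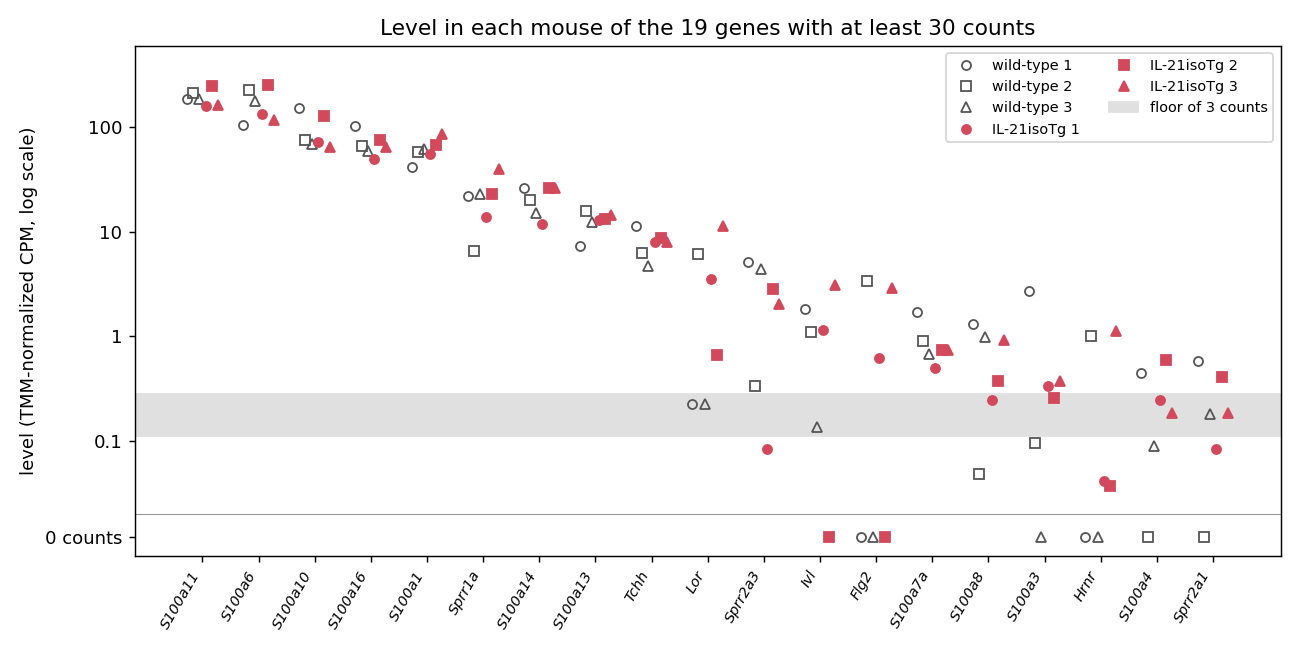
Level in each mouse (TMM-normalized CPM, log scale) of the 19 genes with at least 30 counts, ordered by mean level. Open symbols are wild-type and filled symbols IL-21isoTg mice, the grey band is the floor of 3 counts (0.112 to 0.280 CPM over the libraries), and points on the bottom line had 0 counts. The genotypes overlap for every one of the 15 tested genes. The spread does not follow the level alone: Sprr1a (mean 21.5 CPM) spans 6.03-fold and the lower Tchh (mean 7.83 CPM) 2.41-fold.

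S100a11, a calcium-binding partner of annexin A1 that is also built into the cornified envelope, was at 185, 212 and 187 CPM in wild-type mice and 159, 249 and 164 CPM in IL-21isoTg mice. The IL-21isoTg values lay on both sides of the wild-type values, and the log2 fold change was -0.03 (95% confidence interval -0.52 to 0.46). S100a6 (calcyclin), found in growing epithelial and stromal cells, was at 105, 228 and 180.3 CPM in wild-type and 135, 252 and 117 CPM in IL-21isoTg mice, a log2 fold change of -0.02 (SE 0.36). S100a10, which forms a complex with annexin A2 and has lost the ability to bind calcium, was at 153, 75.4 and 68.6 CPM and at 71.8, 128 and 65.3 CPM. In each genotype 1 mouse stood apart from the other two, and the log2 fold change was -0.16 (SE 0.37).

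S100a1, best known from heart and skeletal muscle, had the smallest unadjusted p of the members (0.131 by edgeR, adjusted p = 0.810). Its levels were 41.9, 57.9 and 62.2 CPM in wild-type mice and 56.1, 67.2 and 85.6 CPM in IL-21isoTg mice, so that IL-21isoTg mouse 1 fell within the wild-type range. The log2 fold change of S100a1 was 0.37 (SE 0.22, interval -0.14 to 0.87). S100a13, which takes part in the release of FGF1 and starts head to head with S100a1, was at 7.40, 15.9 and 12.6 CPM and at 13.0, 13.3 and 14.5 CPM, with a log2 fold change of 0.19 (SE 0.29). The 3 IL-21isoTg values lay between the lowest and the highest wild-type value.

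S100a16, a widely expressed member, was at 103, 67.0 and 58.9 CPM in wild-type and 49.8, 75.5 and 64.9 CPM in IL-21isoTg mice, with a log2 fold change of -0.27 (SE 0.25). Wild-type mouse 1 was the highest, and without it the difference became 0.02. S100a14, an epithelial member, was at 26.0, 20.3 and 15.1 CPM and at 12.0, 26.1 and 26.2 CPM, and its log2 fold change was 0.06 (SE 0.34). For the 9 tested S100a genes the median log2 fold change was -0.03, with 3 above and 6 below 0, and summed over all S100a genes the level was 628, 677 and 586 CPM in wild-type and 499, 814 and 539 CPM in IL-21isoTg mice. Without IL-21isoTg mouse 2, the highest, the median became -0.41.

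The S100 genes of leukocytes and inflamed epithelium were low, at most 1.71 CPM in any mouse. S100a8, which with S100a9 makes up calprotectin, the zinc- and manganese-binding protein of neutrophils and inflamed epithelia, was at 1.31, 0.048 and 0.990 CPM in wild-type and 0.249, 0.372 and 0.933 CPM in IL-21isoTg mice. S100a9 had 2, 0 and 3 counts in wild-type and 5, 1 and 0 counts in IL-21isoTg mice. The log2 fold change of S100a8 was -0.69 (SE 0.99), an interval of -2.98 to 1.61 that leaves wide room in either direction. Neutrophil markers were as sparse: of 10, Retnlg had 0 counts in all mice, 8 others were at or below 0.50 CPM in every mouse, and Prtn3 lay between 0.746 and 6.89 CPM. The summed level of the list was 1.98 to 3.64 CPM in wild-type and 1.12 to 7.26 CPM in IL-21isoTg mice. S100a7a, the mouse relative of the psoriasis protein psoriasin, was at 1.71, 0.913 and 0.675 CPM and at 0.499, 0.745 and 0.746 CPM. Its log2 fold change of -0.74 (SE 0.55) had an unadjusted p of 0.220 by edgeR and an adjusted p of 0.831. S100a4, a protein of motile stromal and immune cells, had 10, 0 and 2 counts in wild-type and 6, 16 and 2 counts in IL-21isoTg mice, and S100a2 and S100a7l2 had none. The S100a4 counts depend on how reads from the exon bases shared with Gm42674 were assigned, which was not tested.

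Loricrin, the glycine-rich main building block of the envelope in skin, differed widely between mice within each genotype. Lor was at 0.226, 6.20 and 0.225 CPM in wild-type mice and at 3.58, 0.670 and 11.4 CPM in IL-21isoTg mice. Wild-type mouse 2 and IL-21isoTg mice 1 and 3 were high and the others lay between 0.225 and 0.670 CPM, so that both genotypes held high and low mice. The log2 fold change was 1.20 (SE 1.34, interval -1.88 to 4.29), with an unadjusted p of 0.394 and an adjusted p of 0.882 by edgeR. Wild-type mouse 2 and IL-21isoTg mouse 3 decided this value, which was 4.46 without the former (unadjusted p 0.0102, adjusted p 0.749 by edgeR, where 6.58% of genes had an unadjusted p under 0.05) and -0.05 without the latter. Involucrin, an early envelope protein onto which others are joined, was at 1.85, 1.11 and 0.135 CPM in wild-type and 1.16, 0 and 3.08 CPM in IL-21isoTg mice. The log2 fold change of Ivl was 0.38 (SE 1.32), and its order of mice was not that of Lor, since wild-type mouse 1 was second highest.

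SPRR proteins are short cross-bridges of the envelope, made also by internal and stressed epithelia. Sprr1a was at 22.1, 6.63 and 23.0 CPM in wild-type and at 13.9, 23.2 and 40.0 CPM in IL-21isoTg mice. The mean was 17.3 ± 9.21 CPM in wild-type and 25.7 ± 13.2 CPM in IL-21isoTg mice (SD, n = 3 each), with a log2 fold change of 0.57 (SE 0.52, interval -0.62 to 1.76). Sprr2a3 was at 5.14, 0.336 and 4.45 CPM and at 0.0832, 2.87 and 2.05 CPM, a log2 fold change of -0.999 (SE 1.12). For Sprr1a and Sprr2a3, and also for Sprr2a1 and S100a8, the lowest 2 mice were wild-type mouse 2 and IL-21isoTg mouse 1. This pair of lowest mice was noticed after the values were seen. It was found in 4 of the 19 members, 3 of them among the 15 tested, and in 7.43% of the 17165 genes tested. Sprr2a1 and Sprr2a3 share much of their sequence, so they are not separate observations. Wild-type mouse 2 and IL-21isoTg mouse 1, low for these genes, were both among the high mice for Lor. Of the other 12 SPRR genes, 5 had no count, and Sprr1b had 5, 0 and 0 counts in wild-type and 3, 2 and 12 counts in IL-21isoTg mice. Sprr2f (16 counts in all), Sprr4 (14), Sprr2d (12), Sprr2h (5), Sprr2e (4) and Sprr2b (1) made up the rest.

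Among the fused S100 genes only trichohyalin was seen in every mouse. Tchh, a protein of the inner root sheath and medulla of hair, was at 11.4, 6.25 and 4.72 CPM in wild-type and 7.98, 8.71 and 7.93 CPM in IL-21isoTg mice, with a log2 fold change of 0.14 (SE 0.34, interval -0.64 to 0.93). The 3 IL-21isoTg values lay close together, within the wild-type range. Filaggrin-2, a filaggrin relative of the upper epidermis, was listed at 0, 3.36 and 0 CPM in wild-type and at 0.624, 0 and 2.89 CPM in IL-21isoTg mice. The mice that were high for Lor were thus the ones with any Flg2. The log2 fold change was -0.04 (SE 1.83), and the interval of -4.26 to 4.19 is too wide to bound a change. Without wild-type mouse 2 it was 7.56 (unadjusted p 0.0483, adjusted p 0.758 by edgeR), a value that depends on the prior count because the remaining wild-type mice had 0 counts. Hornerin, another repeat protein of the upper epidermis, had 0, 21 and 0 counts in wild-type and 1, 1 and 12 counts in IL-21isoTg mice. Repetin (Rptn) had 15, 0 and 10 counts in wild-type and 0, 1 and 2 counts in IL-21isoTg mice, with 25 of its 28 counts in the wild-type mice without Flg2. Cornulin (Crnn), a protein of the oesophageal lining, had 5 counts in all.

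**Figure D3:**
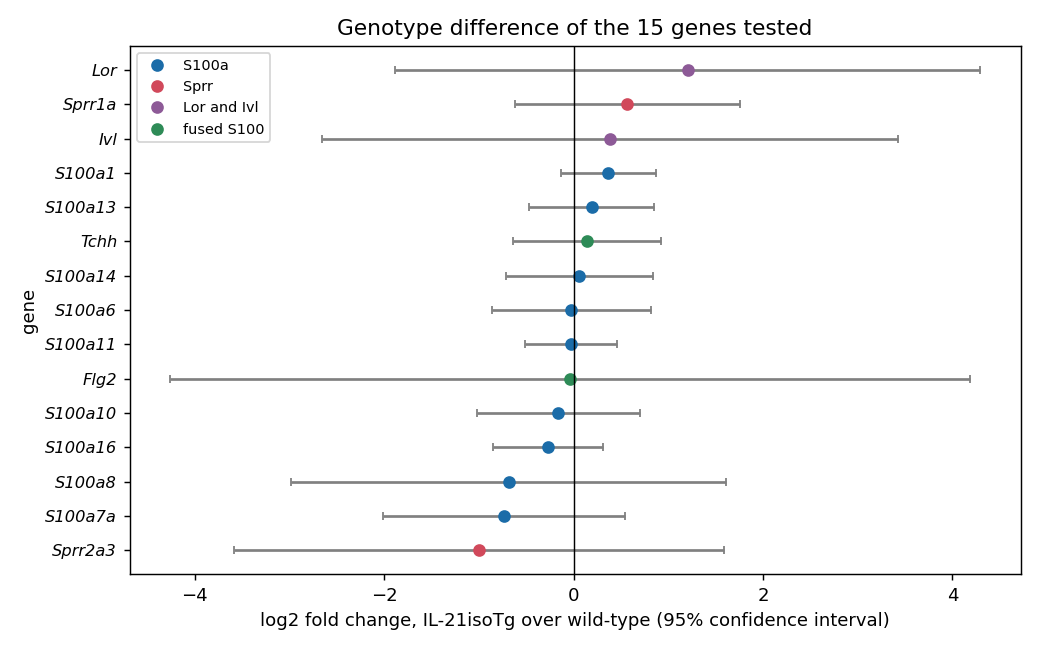
Log2 fold change of IL-21isoTg over wild-type mice (horizontal axis) with its 95% confidence interval for each of the 15 tested genes, ordered by size and coloured by subfamily. Every interval includes 0, and intervals of Lor (-1.88 to 4.29) and Flg2 (-4.26 to 4.19) are several times wider than that of S100a11 (-0.52 to 0.46).

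Filaggrin and the LCE genes, the latest genes of the programme, were hardly detected. Of 21 LCE genes 15 had no count, and a count of 0 in all 6 libraries allows a level of up to 0.0237 CPM over them, for counting error only. The 6 LCE genes with counts had 56 in all, with 0, 1 and 0 counts in wild-type and 8, 2 and 45 counts in IL-21isoTg mice. The third by level per kilobase, Lce1f, had 6 counts, all in IL-21isoTg mice 2 and 3. Filaggrin, which bundles keratins and is cut into moisture-holding amino acids, had 0, 0 and 0 counts in wild-type and 6, 0 and 9 counts in IL-21isoTg mice. These genes were below the filter and had no test in the main comparison. In a fit without the filter, Lce1a1 (0, 0, 0 and 5, 0, 15 counts), Lce1m (0, 0, 0 and 3, 0, 17 counts), Flg and Sprr4 (0, 0, 0 and 1, 0, 13) were 4 of 37 members at an unadjusted p under 0.05 by edgeR (0.0121 to 0.0249, adjusted p = 0.799 for each), where 4.46% of 28839 genes were (2.5% with a higher level in IL-21isoTg mice). With 0 counts in every wild-type mouse they could differ in 1 direction only, and their counts came from IL-21isoTg mice 1 and 3. Wild-type mouse 2, with 129 counts of Lor and 70 of Flg2, had no count of any of these.

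The mice high for Lor and Flg2 were also those high for most markers of the cornifying epidermis. Krt10, a keratin of the suprabasal epidermis, was at 1.49, 200.5 and 2.39 CPM in wild-type and at 96.5, 1.41 and 113.7 CPM in IL-21isoTg mice, and its partner Krt1 was at 0.271, 131 and 0.315 CPM and at 31.3, 0.633 and 29.8 CPM. Wild-type mouse 2 and IL-21isoTg mice 1 and 3 were the highest 3 mice for 6 of 8 epidermis markers. Lgals7, also among the 8, was at 81.7, 59.1 and 36.1 CPM in wild-type and 55.1, 63.3 and 34.6 CPM in IL-21isoTg mice. Its highest level was thus in wild-type mouse 1 and its lowest in IL-21isoTg mouse 3. The summed level of the 8 was 92.1, 513 and 46.4 CPM in wild-type and 269, 82.7 and 284 CPM in IL-21isoTg mice. The same 3 mice, in any order, were highest for 7 of 10 desmosomal and scaffold proteins of the envelope and for 5 of 11 genes of envelope maturation. They were highest for 2 of the 15 tested members (Lor and Flg2), against 4.85% of the 17165 genes tested. The maturation genes Casp14 and Klk5, counted here, were not tested, so that share does not cover them. For Dsp the margin was narrow, with IL-21isoTg mouse 1 at 243 and wild-type mouse 3 at 239 CPM. Hrnr, which was not tested, was highest in wild-type mouse 2 and IL-21isoTg mouse 3, and IL-21isoTg mice 1 and 2 had 1 count each. Desmoglein 1 alpha (Dsg1a), the desmosomal cadherin of the upper epidermis, was at 1.17, 23.7 and 0.180 CPM in wild-type and 8.56, 0 and 9.05 CPM in IL-21isoTg mice. Krt2, a keratin of the uppermost living layers, was seen in wild-type mouse 2 alone (32.5 CPM), so the mice were not alike in every epidermal gene. This set of highest mice was noticed after the values were seen, and the part of epidermal cells in the level of Lor and Flg2 was not tested.

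Hair follicle markers were highest in wild-type mouse 1. S100a3, a protein of the hair cuticle, had 60, 2 and 0 counts in wild-type and 8, 7 and 4 counts in IL-21isoTg mice. Tchh was also highest in wild-type mouse 1, as 6 of the 15 tested members were. All 9 hair follicle markers in the count table had their highest level in that mouse, as did 24.7% of the 17165 genes tested. Only 5 of the 9 were tested, so that share does not cover the rest. Of other lists, 4 of 5 skeletal muscle and 3 of 4 B cell markers were highest there, against 0 of 8 fibroblast and 0 of 4 endothelial markers. The summed level of the hair follicle markers was 36.0, 1.59 and 1.80 CPM in wild-type and 3.37, 2.08 and 8.39 CPM in IL-21isoTg mice. The hair keratins Krt35 (9.38 CPM in wild-type mouse 1) and Krt33a (6.18 CPM) were listed at 0 in wild-type mice 2 and 3. Tchh varied less than these markers, 2.41-fold between its lowest and highest mouse, and was present where hair keratins were at 0. The part of hair follicle cells in S100a3 and Tchh was not tested.

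**Figure D4:**
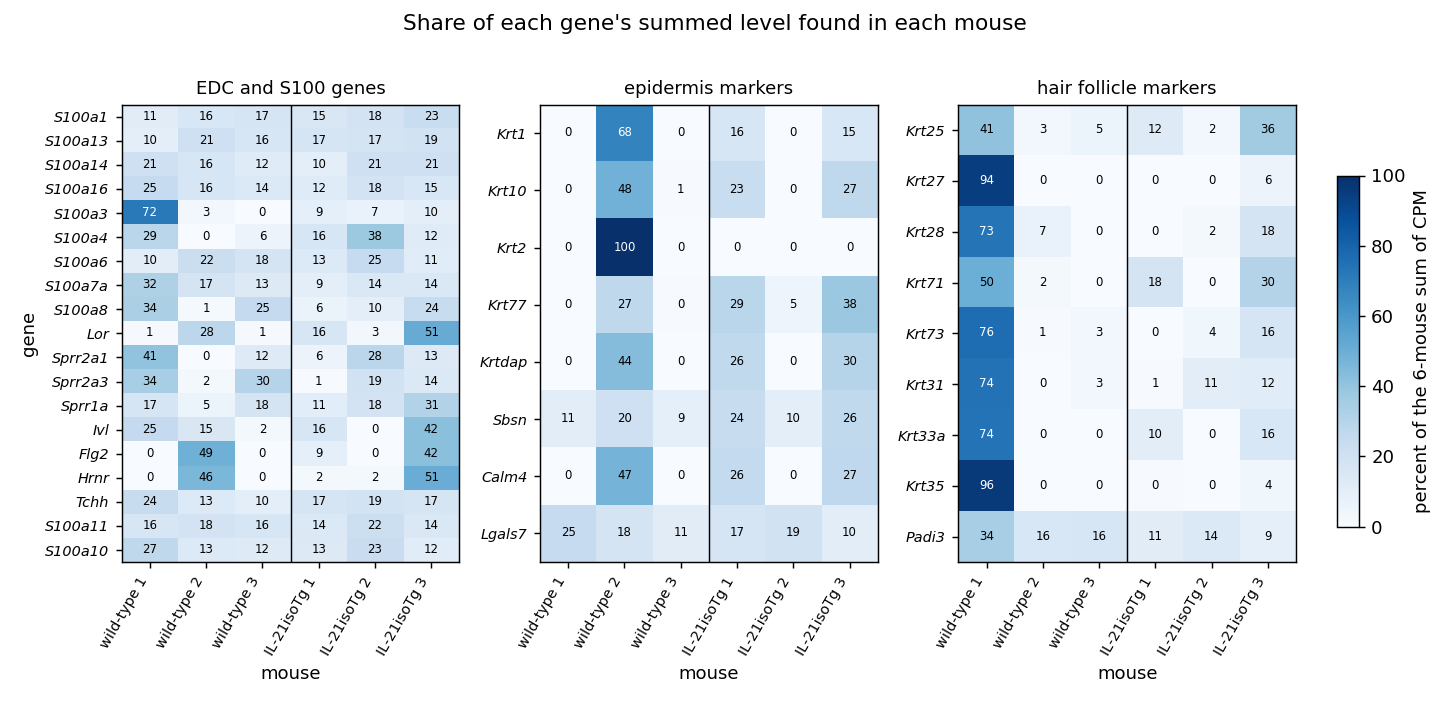
Share of the summed level of each gene (percent of the sum of CPM over the 6 mice, given by colour and in each cell) found in each mouse, for the 19 genes with at least 30 counts, the 8 epidermis markers and the 9 hair follicle markers. Lor, Flg2 and Hrnr are darkest in wild-type mouse 2 and IL-21isoTg mouse 3, 6 of the 8 epidermis markers are darkest in those mice and IL-21isoTg mouse 1, S100a3 is darkest in wild-type mouse 1 with the hair keratins, and the leading S100a genes are spread over all mice.

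Genes that act with the EDC and S100 proteins were counted from 7 lists of 50 genes, of which 45 were tested. By edgeR, 3 had an unadjusted p under 0.05 with a higher level in IL-21isoTg mice (3.19% of all genes) and 1 with a lower level (2.63% of all genes), together 8.89% of the 45 against 5.82% of all genes, and 0 passed after adjustment. Levels of the partners of the S100a proteins spanned a wide range. Ahnak, a scaffold bound by the complex of S100a10 and annexin A2, was at 578 to 721 CPM over the 6 mice, Anxa1 at 386 to 719 CPM, Anxa2 at 252 to 469 CPM, Anxa6 at 218 to 333 CPM and Anxa11 at 15.7 to 24.3 CPM, and 0 of the 5 genes of this list had an unadjusted p under 0.05. Among 6 S100 receptors, Alcam, an adhesion molecule, had a log2 fold change of -0.91 (SE 0.30), with 81.5, 169 and 155 CPM in wild-type and 63.1, 92.7 and 59.03 CPM in IL-21isoTg mice. Mcam, an adhesion molecule of vessels and myoepithelium, was at 26.3, 40.2 and 36.8 CPM and at 59.6, 50.9 and 40.6 CPM, the 3 IL-21isoTg mice above the wild-type mice by a narrow margin (log2 fold change 0.55, SE 0.22). The median log2 fold changes of the basal (0.51) and the endothelial (0.96) markers were above 0 too. So were those of other lists, such as fibroblast (0.58), T cell (0.77) and adipocyte (1.78) markers. Those of B cell (-0.24), hair follicle (-0.93) and skeletal muscle (-0.60) markers were below 0. The part of basal and endothelial cells in Mcam was not tested. Ager, the receptor for advanced glycation end products, was at 0.677 to 2.11 CPM.

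Of the enzymes that build the envelope, the transglutaminases had 0 of 4 genes at an unadjusted p under 0.05. Tgm2, the tissue transglutaminase, was at 308 to 1791 CPM, and Tgm1, the keratinocyte enzyme, at 43.3, 38.2 and 40.9 CPM in wild-type and 52.2, 86.0 and 38.5 CPM in IL-21isoTg mice. The envelope scaffold list had 0 of 10. Of 11 envelope maturation genes, 8 were tested and 1 passed the unadjusted threshold: Cst6, an inhibitor of the cathepsins that control transglutaminase 3, was at 0.947, 2.21 and 0.315 CPM in wild-type and 8.69, 0.298 and 17.6 CPM in IL-21isoTg mice (log2 fold change 2.92, SE 1.20). Cst6 had an unadjusted p under 0.05 in 4 of 12 alternatives, and by limma-voom its log2 fold change was 1.56 with an unadjusted p of 0.426. Its highest 3 mice were those of Lor, and IL-21isoTg mouse 2 was the lowest of all 6. Among 11 regulators of keratinocyte differentiation, Prdm1, a repressor of transcription, was at 6.90, 5.48 and 5.71 CPM in wild-type and 8.15, 9.64 and 9.61 CPM in IL-21isoTg mice without overlap (log2 fold change 0.60, SE 0.23). Klf4 (141 to 280.0 CPM), which switches on envelope genes in skin, and Grhl1 (39.7 to 66.8 CPM) were present in all mice with log2 fold changes of 0.02 and -0.19. Non-overlapping genotypes were found in 2 of the 45 genes (4.44%), against 12.1% of all genes. S100 genes encoded outside the cluster were at or below 3.73 CPM (S100b), and S100z had no count.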

How the data were processed

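Poly(A) RNA of MECs was sequenced from 3 wild-type and 3 IL-21isoTg mice with a directional kit and paired reads of 150 bases. The authors deposited raw read counts per gene and mouse, which were used here without other scaling. The submitters' processing notes name FastQC 0.11.7, Trimmomatic 0.38, HISAT2 2.1.0, SAMtools 1.9, featureCounts 1.6.3 and DESeq2 1.24.0 and the build mm10. The strand setting and the annotation are not given in the sources used here. A normalized matrix and the authors' genotype comparison (fold changes and p-values) were deposited as well and were not used.

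Genes were filtered with filterByExpr (minimum count 10, minimum total 15), scaled with TMM and compared with edgeR 4.0.16 (quasi-likelihood, robust, genotype as the only term) in R 4.3.3, with Benjamini-Hochberg adjustment over 17165 genes and a threshold of 0.05. P-values set the genotype difference against the spread between mice, which edgeR estimated with information from other genes. An exact test of 3 mice against 3 cannot give a p below 0.1. DESeq2 1.42.0 and limma 3.58.1 gave alternative tests, and the fits were tested on simulated data. CPM are counts scaled to the TMM-adjusted library size, and confidence intervals are at 95%. Floors of 3 counts cover counting error only. Gene positions and exon lengths came from GENCODE M21 on GRCm38, promoters from RefSeq, and plots from Python 3.11.15 with matplotlib 3.10.9.

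Named genes were every member with a summed count of at least 30. Those given in full were the members with the 10 smallest unadjusted p, those without overlap between genotypes and the 3 of each subfamily with the highest count per length. From each list, genes with an unadjusted p under 0.05 or without overlap were named, with others chosen once values had been seen. The members and lists were chosen with earlier results of these data known. Within each genotype no library was a duplicate of another, pairs across genotypes were not compared, and all 6 were used.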

Additional observations from a re-analysis of the deposited data

How the results depend on the processing

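Over 13 alternatives, 160 of 189 log2 fold changes of the 15 tested members kept their direction and 29 reversed. None of the members passed an adjusted p of 0.05 in any alternative, the lowest adjusted p being 0.667. Over all genes, 0 were called in the main comparison, 14 without a filter, 80 by DESeq2 and 0 to 6 when 1 mouse was left out (6 without wild-type mouse 3). Members at an unadjusted p under 0.05 numbered 0, 4 without a filter and 0 to 3 with 1 mouse left out. The 3 came without wild-type mouse 2, where 18 members were tested and 6.58% of 17748 genes passed. They were Lor, Flg2 and Rptn, whose log2 fold change was -3.23. Rptn, not tested in the main comparison, met the filter there through wild-type mice 1 and 3 alone (15 and 10 counts). Flg2 met it there through IL-21isoTg mice 1 and 3 alone (15 and 31 counts). For Rptn and Flg2 the filter thus favoured the direction found, and no conclusion is drawn from their p-values. Members without overlap numbered 0 to 5 with 1 mouse left out, where 17.9% to 27.6% of all genes did not overlap (5 of 18 members against 22.1% without wild-type mouse 2). Unadjusted p-values under 0.05 were found in 9 of 13 alternatives for Alcam, 8 for Mcam and 7 for Prdm1, and in 4 of 12 for Cst6. The median of the S100a genes ran from -0.41 (without IL-21isoTg mouse 2) to 0.088 and that of the envelope and fused S100 genes, 0.26 in the main comparison, from -0.43 (without IL-21isoTg mouse 3) to 0.63.

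Reversed values were -0.030 for S100a14 and -1.33 for Ivl by limma-voom. Flg2, at -0.04, was 0.0030 with DESeq2's size factors, 0.016 with TMM factors from genes outside the salivary list, 0.11 by DESeq2 and 0.92 by limma-voom. With 1 mouse left out, ranges that crossed 0 were -0.050 to 0.45 for S100a13, -0.12 to 0.35 for S100a14, -0.42 to 0.021 for S100a16, -0.44 to 0.24 for S100a6, -0.047 to 4.46 for Lor, -0.81 to 1.14 for Ivl, -1.83 to 7.56 for Flg2, -0.10 to 0.59 for Tchh, -0.27 to 0.088 for S100a11 and -0.53 to 0.31 for S100a10. The cause was not tested. No alternative shifted the median of all genes by over 0.03 on the log2 scale.

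The mice of each genotype are numbered 1 to 3, but deviations of same-numbered mice correlated at -0.263, 0.0956 and -0.0556, so the numbers were not taken as a pairing. With the replicate number as a block, 0 genes were called and 657 in place of 999 had an unadjusted p under 0.05. Ivl became -0.34 and Flg2 2.32 under the block.

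Depth limits what can be said of the LCE genes, Flg, S100a4, S100a9 and most SPRR genes, whose counts lay near the floor. For S100a4, the assignment of reads from sequence shared with Gm42674 is a further limit.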
